A study of Mus musculus with 8 samples.

Results

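The AP-1 and immediate early genes examined here were the Jun family (Jun, Junb and Jund), the Fos family (Fos, Fosb, Fosl1 and Fosl2), and Egr1, Ier2 and Ier3. They were chosen by name, through the accession of each array probe, and made up 10 of the 18749 genes whose symbols could be matched to the array. All 10 had a probe on the array, and 9 passed the filter on dim probes and were tested among 14137 genes. RNA was taken from No. 4 mammary glands of C57/Bl6 females at lactation day 1, from 4 wild-type (WT) dams and 4 Th-POK knockout (KO) dams. Each dam had an Agilent 1-colour array of its own. Th-POK, encoded by Zbtb7b, is a zinc finger transcription factor of luminal epithelial and T cells, and the study asked what its loss does to the lactating gland. The KO dams were knockout animals, and the methods name no Cre driver, so the comparison is between animals and not between glands that differ in the epithelium alone.

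Immediate early genes are switched on by growth factors, cytokines and stress from factors already present in the cell, without new protein synthesis, and most of their mRNAs are short-lived. Proteins of the Jun and Fos families share a basic leucine zipper and pair with each other to form AP-1, which binds DNA at the TRE and at the related CRE. Jun proteins can also pair among themselves, whereas Fos proteins need a partner. In the mammary gland, AP-1 is known for its activation when milk removal stops and the gland regresses.

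Reference promoters, from 250 bases before to 50 bases after the annotated start, were found for 7 of the 10 members in the RefSeq table of build GRCm38.p6, and Fosl1, Egr1 and Ier2 had no entry there. The stretches of 30 bases below show, in capitals, letters that match patterns modelled on the sites that AP-1, CREB or MEF2 proteins bind. Some members are known targets of such factors. Jun lies at chr4:95052242-95052271 on the minus strand, Junb at chr8:84978837-84978866 on the minus strand, Ier3 at chr17:35821644-35821673 on the plus strand, Fos at chr12:85473812-85473841 on the plus strand and Fosb at chr7:19310088-19310117 on the minus strand. Each is written 5′ to 3′ on the strand of its gene.
Jun: ggggTGACATCAtgggCTATTTTTAGggat
Junb: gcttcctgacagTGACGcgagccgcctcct
Ier3: ttctttggctCTATAAGTAGctctgctttg
Fos: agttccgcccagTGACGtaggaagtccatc
Fosb: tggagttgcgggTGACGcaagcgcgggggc

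The Jun stretch held the CRE-like letters TGACNTCA, and, 4 bases on towards the start, a MEF2-like match. That pattern was loose, CTA and TAG with any 4 bases between them. The Ier3 stretch matched the same loose pattern, with a G among the 4 bases between CTA and TAG. Its match overlapped the TATA letters, TATAA, so it is not taken here as a MEF2 site. The Fos, Fosb and Junb stretches held the CRE core TGACG, which Fos carried a second time further upstream. Both strands of all 32851 promoters in the table were searched for the same letters. TGACNTCA was found in 8.83% of them, TGACG in 20.8%, the MEF2-like match in 3.69% and TATAA in 24.9%. The TRE letters TGACTCA, found in 5.2% of all promoters, the STAT letters TTCNNNGAA, found in 8.3%, and the CArG box, found in 1.63%, were in 0 of the 7 members. Fosl2 and Jund held none of the motifs searched. A match says only that the letters are in the window. An absence says nothing about sequence more than 250 bases upstream, nor about Fosl1, Egr1 and Ier2, whose promoters were not searched.

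**Figure D1:**
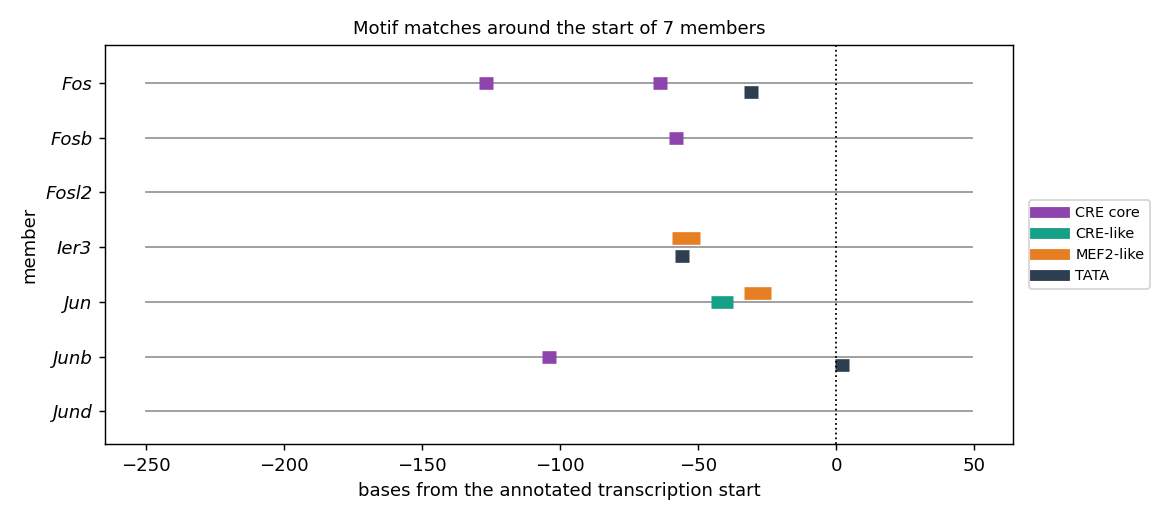
Motif matches in the 7 reference promoters, by distance in bases from the annotated start (0), each line running from 250 bases before to 50 bases after it. Matches other than TATAA lie in Fos, Fosb, Ier3, Jun and Junb, all before the start, and the lines of Fosl2 and Jund are empty.

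On each array 66.8% to 75.3% of the 41174 probes were well above background, and none was saturated. Zbtb7b, the targeted gene, read between 9.90 and 10.42 on the log2 scale in WT glands and was not well above background on any KO array, at least 81.5-fold lower. The 4 WT arrays shared 1 slide and the 4 KO arrays another, so slide and genotype cannot be told apart in any difference given here. Values are log2 of the background-subtracted signal after quantile normalization, and a difference of 1.00 is a doubling. Arrays are named by genotype and replicate number, errors of group means are SD over 4 arrays, and a gene was called where limma with Benjamini-Hochberg adjustment over all 14137 genes gave an adjusted p under 0.05.

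Jun, Junb, Egr1 and Ier3 were higher in KO glands, by 1.95-fold to 3.45-fold, and their genotypes did not overlap. Of the 9 members tested, 4 were called higher in KO, where 7.53% of all genes tested were, and 0 were called lower, where 8.96% of all genes were. In either direction 16.5% of all genes were called. The members were chosen with earlier results of these data known, so their counts and median here are descriptions and not tests. At an unadjusted p under 0.05 in limma, 6 members were higher and 0 lower. Such p-values were common over all genes. By limma p, Fosl2 (unadjusted p = 0.0236) had rank 3782 of 14137 and Fos (0.0533) had rank 5274. So at least 3782 and fewer than 5274 of the 14137 genes had an unadjusted p under 0.05 in limma, both directions together. Counts at an unadjusted p under 0.05, here and below, therefore stand against a large share of all genes. The methods name a two-tailed Student's t-test for comparing conditions, and describe no test of single genes on the arrays. That t-test was run here on each gene, with the same adjustment, and is called the methods' t-test below. It called 0 members after adjustment and 5 higher without it. The 9 members were well above background on all 8 arrays, so none entered through 1 genotype alone. Non-overlap was a looser criterion: 24.1% of all genes had genotypes that did not overlap, 11.1% with KO higher and 12.9% with KO lower. The mean was higher in KO for 8 of the 9 members and for 47.6% of all genes. The median difference of the members was 0.96, against -0.02 over all genes, whose differences lay between -0.89 and 0.82 from the 5th to the 95th percentile.

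**Figure D2:**
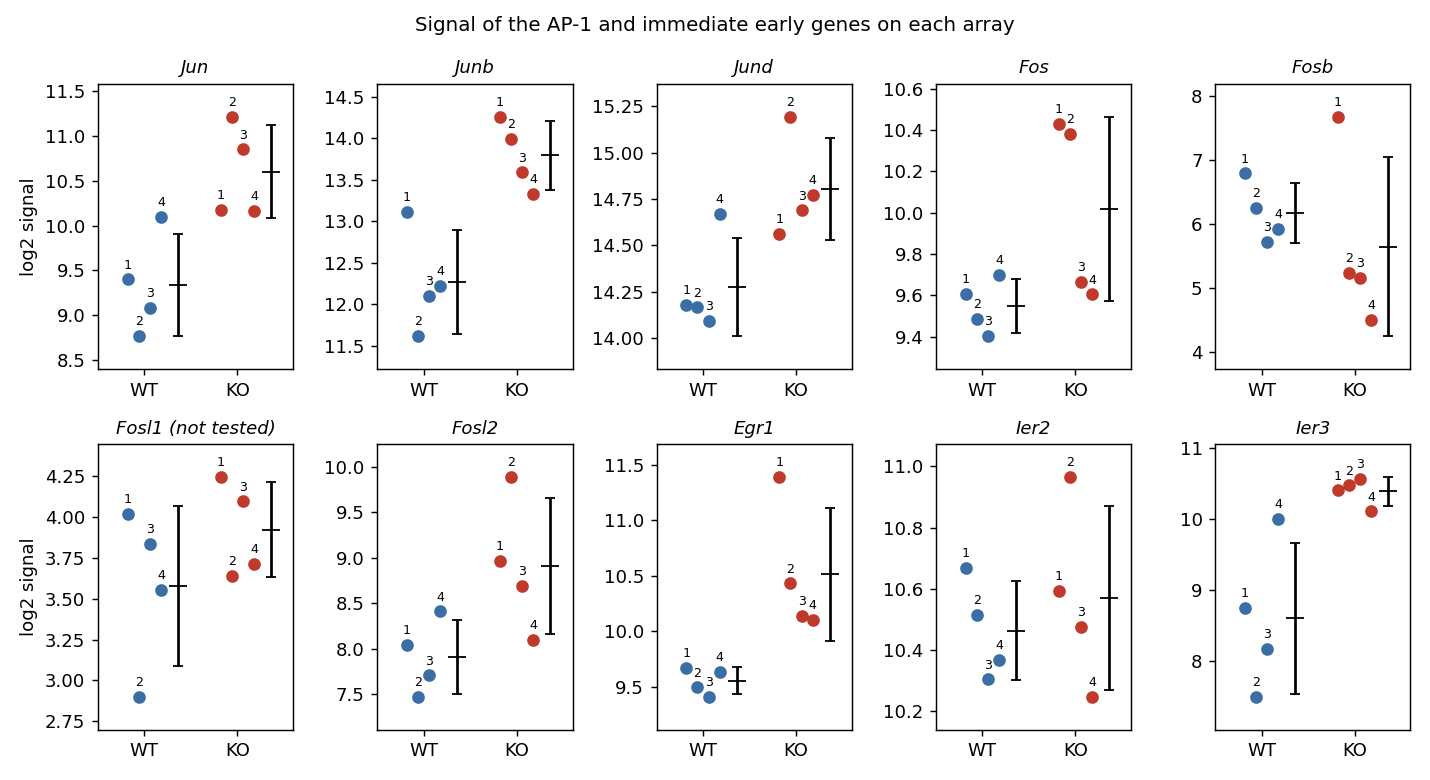
Log2 quantile-normalized signal of the 10 members on each of the 8 arrays (points, numbered by replicate; blue WT, red KO), with the mean and SD of the 4 arrays of each genotype as bars; each panel has its own vertical scale. In Jun, Junb, Egr1 and Ier3 every KO point lies above every WT point, and in Jun and Ier3 the WT 4 point comes within 0.07 and 0.11 of the lowest KO point.

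Jun is the founding AP-1 subunit and a target of the JNK kinases. Its probe read 9.40, 8.77, 9.09 and 10.10 in WT 1 to WT 4 and 10.18, 11.21, 10.85 and 10.16 in KO 1 to KO 4. WT 4 stood above the other WT arrays and KO 2 and KO 3 above the other KO arrays, with 0.07 between the highest WT and the lowest KO value. Jun was 2.40-fold higher in KO (95% interval 1.42 to 4.05), a log2 difference of 1.26 ± 0.33 (SE; limma adjusted p = 0.0374). Blocking on replicate number ended the call (adjusted p = 0.0702), as did leaving out WT 2 (0.0968), WT 3 (0.0872), KO 1 (0.0598), KO 2 (0.0836) or KO 3 (0.0982). Jun was printed in 10 spots per array, whose SD within an array was 0.03 to 0.08, against an SD among dams of 0.57 in WT and 0.52 in KO.

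Junb, which is known both as an activator and as a restraint on Jun, showed the smallest adjusted p of the members. It read 13.11, 11.62, 12.10 and 12.22 in WT and 14.26, 13.99, 13.59 and 13.33 in KO. WT 1 was the highest WT array and KO 1 the highest KO array, and the genotypes did not overlap. Junb was 2.89-fold higher in KO (95% interval 1.73 to 4.82), with means of 13.79 ± 0.41 in KO and 12.26 ± 0.62 in WT and a log2 difference of 1.53 ± 0.32 (SE; limma adjusted p = 0.0216). A second Junb probe read 12.05, 10.71, 11.18 and 11.39 in WT and 13.17, 12.98, 12.46 and 12.31 in KO, a difference of 1.397 with the arrays in the same order within each genotype. The call was lost on leaving out WT 2 (adjusted p = 0.0524), WT 3 (0.0559), KO 1 (0.0579), KO 2 (0.0559) or KO 3 (0.0558).

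Jund, the Jun protein most cells carry without stimulation, was higher by 0.53 ± 0.18 (SE; 95% interval 0.12 to 0.94), and did not pass the threshold (limma adjusted p = 0.0724). It read 14.18, 14.17, 14.09 and 14.67 in WT and 14.56, 15.20, 14.69 and 14.77 in KO. WT 4 lay far from the other WT arrays and above KO 1, the only overlap. Without WT 4 the difference was 0.66 (adjusted p = 0.0395).

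Egr1 and Ier3, which are not AP-1 subunits, were also called. Egr1, a zinc finger transcription factor, read 9.67, 9.50, 9.41 and 9.64 in WT and 11.39, 10.43, 10.14 and 10.10 in KO. The WT arrays lay close together (SD 0.12) and the KO arrays were spread (SD 0.60), mainly by KO 1. Egr1 was 1.95-fold higher in KO (95% interval 1.27 to 2.98), a log2 difference of 0.96 ± 0.27 (SE; limma adjusted p = 0.0435). Its call was lost on leaving out WT 1 (adjusted p = 0.0530), WT 2 (0.106), WT 3 (0.0964), WT 4 (0.0707), KO 2 (0.0843) or KO 3 (0.0693), while without KO 1 the difference was 0.67 and stayed called.

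Ier3, a stress-induced protein that acts on cell survival, had the largest difference of the members. It read 8.75, 7.50, 8.17 and 10.001 in WT and 10.41, 10.48, 10.57 and 10.11 in KO. Here the spread lay in the WT glands (SD 1.06), where WT 4 came within 0.11 of KO 4, and the KO arrays were close together (SD 0.20). Ier3 was 3.45-fold higher in KO (95% interval 1.67 to 7.12), a log2 difference of 1.79 ± 0.46 (SE; limma adjusted p = 0.0351). The call was lost on leaving out WT 2 (adjusted p = 0.0741), WT 3 (0.0836), KO 1 (0.0796), KO 2 (0.0790) or KO 3 (0.0915). Ier2, a nuclear protein of the same early response, read 10.67, 10.51, 10.30 and 10.37 in WT and 10.59, 10.96, 10.48 and 10.25 in KO. The Ier2 genotypes overlapped, with a difference of 0.11 (95% interval -0.27 to 0.48, limma adjusted p = 0.668).

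None of the Fos family passed the threshold. Fos, the usual partner of Jun, read 9.61, 9.48, 9.40 and 9.70 in WT and 10.43, 10.38, 9.66 and 9.60 in KO. KO 1 and KO 2 lay above every WT array and KO 3 and KO 4 within the WT range. Its difference was 0.47 ± 0.21 (SE; 95% interval -0.01 to 0.95, limma adjusted p = 0.143), and the SD among its 10 spots on an array was 0.02 to 0.11. Fosl2, which lacks the strong activation domain of Fos, read 8.04, 7.47, 7.71 and 8.41 in WT and 8.96, 9.88, 8.69 and 8.10 in KO. Only KO 4 fell within the WT range, and the difference of 1.00 ± 0.36 (SE; limma adjusted p = 0.0881) was as large as that of Egr1 with a wider spread. Without KO 4 Fosl2 was called, with a difference of 1.27 (adjusted p = 0.0402). A second, dimmer Fosl2 probe, well above background on 2 arrays of each genotype, gave 0.94 with no test.

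Fosb was the member whose mean was lower in KO. It read 6.79, 6.25, 5.72 and 5.92 in WT and 7.68, 5.24, 5.17 and 4.51 in KO. KO 1 was the highest of all 8 arrays and the other KO arrays were the lowest, so the difference of -0.52 had a 95% interval from -1.94 to 0.89 (limma adjusted p = 0.573), and -1.20 without KO 1. Fosl1 was dim, well above background on 2 WT arrays and 1 KO array, and was not tested. It read 4.02, 2.90, 3.83 and 3.55 in WT and 4.24, 3.64, 4.10 and 3.71 in KO, with overlap. With no filter its difference was 0.35 (limma adjusted p = 0.417).

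**Figure D3:**
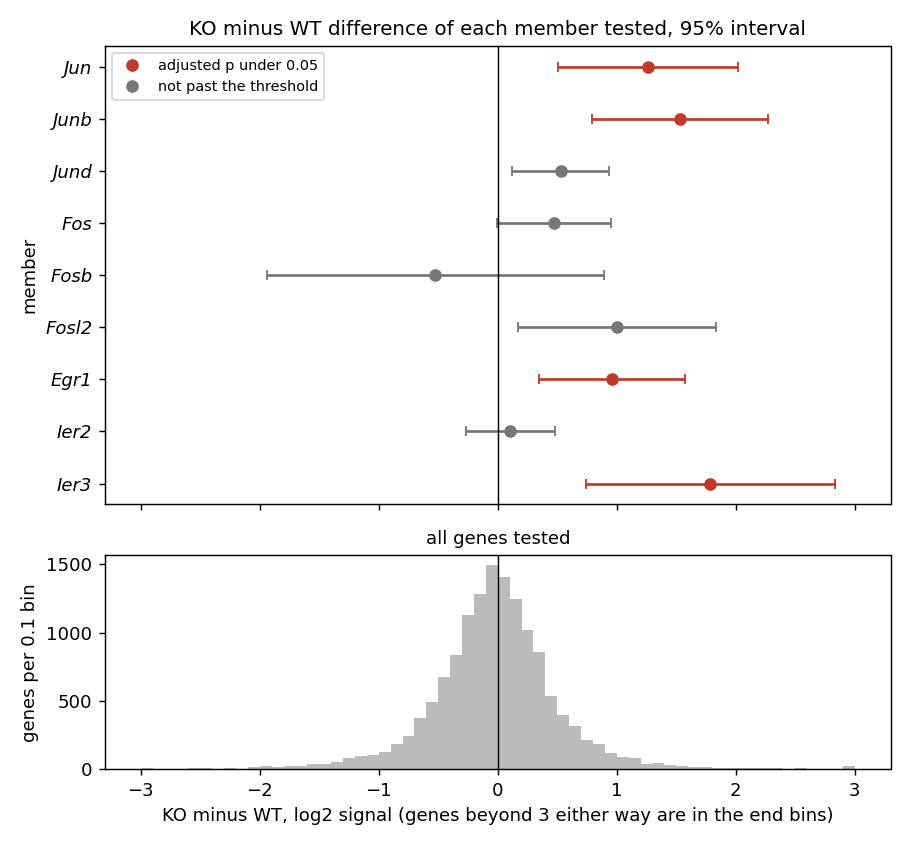
Upper panel, KO minus WT difference in log2 signal of the 9 members tested, with 95% intervals from limma (red, adjusted p under 0.05). Lower panel, the differences of all 14137 genes tested on the same axis; the intervals of Fos, Fosb and Ier2 include 0.

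Across arrays, the members did not all follow 1 order, but some arrays recurred. KO 4 was the lowest KO array for 8 of the 9 members tested, all but Jund. KO 1 was the highest KO array for Fos, Fosb, Junb and Egr1, and KO 2 for Fosl2, Jun, Jund and Ier2. Among the WT arrays, WT 4 was the highest for Fos, Fosl2, Jun, Jund and Ier3 and WT 1 for the other 4, while WT 2 or WT 3 held the lowest WT value of every member. These are descriptions of 4 dams of each genotype, and the members on 1 array share its RNA.

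**Figure D4:**
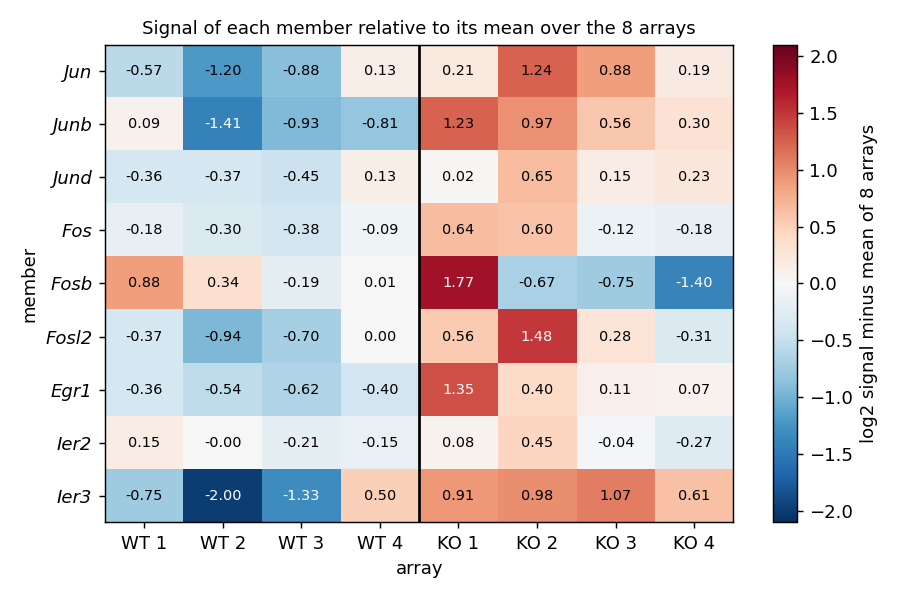
Log2 signal of the 9 members tested, as the difference from each member's mean over the 8 arrays (colour and printed value; red above, blue below). WT 2 and WT 3 are at or below the mean for all members but Fosb in WT 2, and KO 1 and KO 2 are above it for all but Fosb in KO 2.

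Genes outside the members and the lists below were ranked by how closely their signal followed the members' mean standardized signal over the 8 arrays. The highest were Crebl2 (Pearson r = 0.980), Bcl2l1 (0.977), Jmjd1c (0.973), Cd38 (0.973) and Zc3h6 (0.965). With the genotype means subtracted, they were Crebl2 (0.954), Zc3h12a (0.948), Prickle1 (0.941), Bcl2l1 (0.936) and Zc3h6 (0.933). Crebl2, a small basic leucine zipper protein, read 9.33, 8.82, 8.91 and 9.27 in WT and 9.90, 10.26, 9.46 and 9.37 in KO, with no overlap and a difference of 0.67 (limma adjusted p = 0.0653). Bcl2l1, which encodes a survival protein of the Bcl2 family, differed by 0.63 (0.0648). Of these 7 genes, Zc3h6 alone was called, at 0.91 (0.0396). These correlations are over 8 arrays, picked as the highest of all genes outside the lists, and share each array's RNA. Listed genes, such as the other immediate early genes, were not ranked.

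Other immediate early genes were set beside the members from a list of 40, of which 35 could be tested. Counts called in this and the lists below stand against 7.53% of all genes called higher and 8.96% called lower. In this list, 5 genes were called higher, 0 lower, and 22 had a higher KO mean, with a median difference of 0.39. At an unadjusted p under 0.05 in limma, 14 were higher and 2 lower, and the methods' t-test called 1 higher and 0 lower. The largest difference was that of Socs3, a feedback inhibitor of cytokine receptor signalling. Socs3 read 10.82, 9.45, 10.51 and 9.61 in WT and 13.29, 11.73, 11.78 and 11.81 in KO, with KO 1 far above the rest and no overlap. Its difference was 2.05 ± 0.43 (SE; limma adjusted p = 0.0214). Gadd45a and Gadd45b, of the growth arrest and DNA damage family, rose by 1.21 (0.0183) and 1.22 (0.0323), Rhob, a small GTPase, by 0.73 (0.0377) and Btg2, an antiproliferative factor, by 0.98 (0.0484). In Gadd45b WT 1 lay above KO 4 and in Btg2 WT 4 lay above KO 3. Gadd45a was called in 15 of the 16 alternative settings, all but that without KO 3 (adjusted p = 0.0551). Socs3 was called in 13, all but the methods' t-test (0.0561) and those without WT 2 (0.0581) or KO 3 (0.0528). Gadd45b and Rhob lost their calls without WT 2, WT 3, WT 4, KO 1, KO 2 or KO 3, with adjusted p up to 0.0890 and 0.0954, and Btg2 without any array but WT 4 (up to 0.118). The replicate block also ended the calls of Rhob (0.0735) and Btg2 (0.0617). Egr2, Atf3, Myc and Dusp1 did not pass, with differences of 0.29, 0.85, 0.30 and -0.12. Egr3, Egr4, Nr4a3 and Ptgs2 were too dim to test.

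The 12 basic leucine zipper genes tested outside the Jun and Fos families, which can pair with AP-1 proteins, had 2 called higher, 0 lower, and a median difference of 0.21. At an unadjusted p under 0.05 these counts were 5 and 0, and by the methods' t-test 2 and 0. Batf, a partner of Jun proteins in immune cells, read 9.01, 9.13, 9.14 and 8.55 in WT and 9.84, 9.51, 9.73 and 9.65 in KO, without overlap. Batf rose by 0.72 ± 0.15 (SE; limma adjusted p = 0.0214), and its call was lost without KO 1 (0.0588) or KO 3 (0.0639). Creb1, Crem and Atf2 gave 0.32, 0.49 and 0.10 and did not pass.

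Among the 27 kinases and factors tested that lie upstream of AP-1, 3 were called higher and 2 lower. Of all genes, 7.53% were called higher and 8.96% lower. Mapk12, the gamma form of p38 kinase, read 9.73, 9.59, 9.70 and 9.38 in WT and 10.67, 10.40, 10.45 and 10.47 in KO, a difference of 0.90 ± 0.12 (SE; limma adjusted p = 0.0062) that was called in all 16 alternatives. Mapk7, the ERK5 kinase, rose by 0.36 (0.0296), and Mrtfb, a coactivator of serum response factor, by 0.48 (0.0478). Map2k1, the MEK1 kinase, fell by 0.50 (0.0381) and Rps6ka1, the RSK1 kinase below ERK, fell by 0.74 (0.0452). Each of these 4 calls was lost without WT 2, WT 3, KO 1 or KO 3, and some without other arrays, with adjusted p up to 0.0900 for Mapk7, 0.122 for Mrtfb, 0.0952 for Map2k1 and 0.117 for Rps6ka1. The replicate block ended the calls of Mapk7 (0.0505) and Mrtfb (0.0750), and normexp lowered the Mrtfb difference to 0.25 (0.0788). The methods' t-test ended those of Mrtfb (0.0710), Map2k1 (0.0575) and Rps6ka1 (0.0887). The JNK genes Mapk8 and Mapk9 gave 0.16 and -0.39 and did not pass. The median difference of the kinases and factors was 0.16, and with no filter 2 of them were called higher and 0 lower.

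Of 16 AP-1 target genes tested, 2 were called higher and 1 lower, 7 had a higher KO mean, and the median difference was -0.06. Plau, the urokinase plasminogen activator, read 7.26, 7.27, 7.15 and 7.25 in WT and 7.66, 7.82, 7.71 and 7.78 in KO, and its difference of 0.51 ± 0.09 (SE; limma adjusted p = 0.0139) was called in all 16 alternatives. Timp1, an inhibitor of metalloproteinases, was higher by 0.62 (0.0399), and Hmox1, haem oxygenase, was lower, at -0.89 (0.0367). Timp1 lost its call without any array but KO 4 (up to 0.0910) and with the replicate block (0.0699), and Hmox1 without any array but WT 3 or KO 4 (up to 0.0982). The methods' t-test ended both calls (0.0733 for Timp1 and 0.0769 for Hmox1), as did testing with no filter. Scaling to the 75th percentile left Plau as the only target called higher. The metalloproteinases Mmp3, Mmp9 and Mmp13 gave 0.40, -0.15 and -0.64 and did not pass. Of 15 heat shock genes, which mark stress of handling or heat, 1 was called higher (Cryab, 1.29, limma adjusted p = 0.0480) and 1 lower (Hsph1, -1.01, 0.0428), with a median difference of 0.01. Cryab lost its call without any array but WT 1 or KO 2 (up to 0.125), and Hsph1 without any array but WT 4 (up to 0.103). The methods' t-test ended both calls (0.103 for Cryab and 0.0918 for Hsph1). The inducible Hsp70 genes Hspa1a and Hspa1b gave 0.01 and -0.09.

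**Figure D5:**
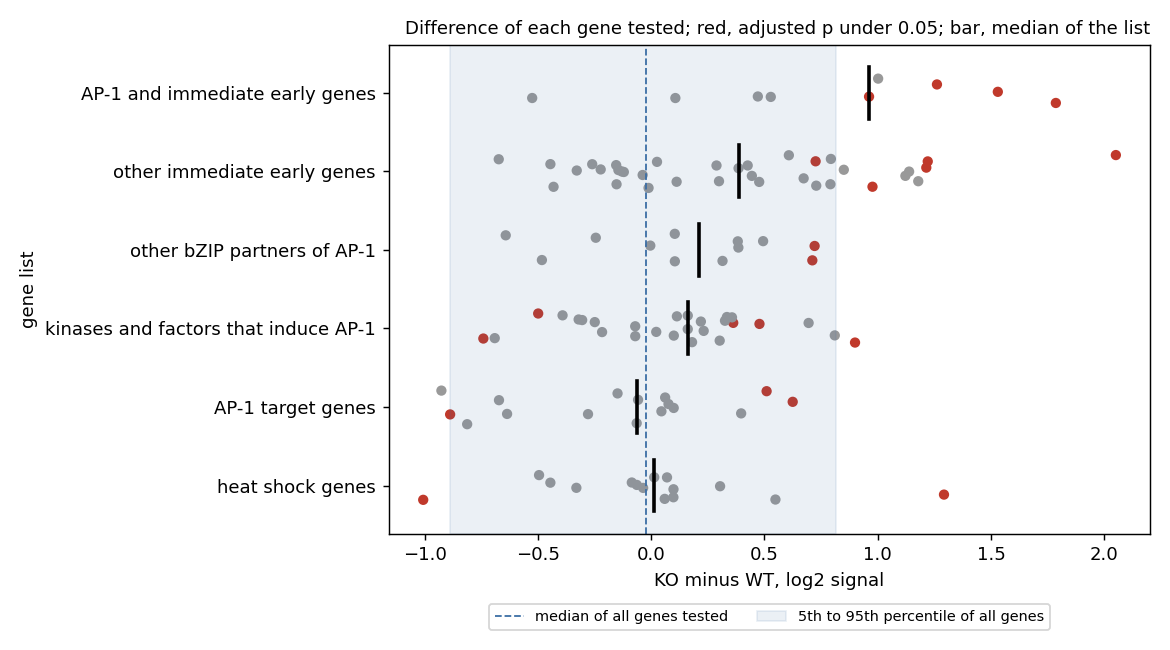
KO minus WT difference in log2 signal of each gene tested in 6 lists (points; red, limma adjusted p under 0.05; bar, median of the list). The dashed line is the median of all genes tested and the band runs from their 5th to their 95th percentile; 5 members lie beyond the upper edge of the band, and the medians of AP-1 target and heat shock genes lie near the dashed line.

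Whole glands were measured, so a change in RNA per cell and a change in how many cells of a type were present cannot be told apart. Neutrophils and other leukocytes also carry immediate early mRNAs. Of the 5 neutrophil markers well above background on all 8 arrays, 1 was called higher, Ltf, which milk epithelium also makes (difference 1.31), and their median difference was 0.49. Camp and Ngp passed the filter through the KO arrays alone. They were not well above background on any WT array and were at least 8.54-fold and 7.11-fold higher in KO, and with normexp, whose offset narrows low signals, their differences were 1.44 and 1.17 in place of 4.74 and 3.96. S100a9 read 11.14, 8.68, 10.48 and 12.16 in WT and 13.75, 12.67, 12.34 and 12.48 in KO, a difference of 2.19 (limma adjusted p = 0.0573). Mpo and Csf3r differed by 0.24 and 0.08 and did not pass, and Elane was not well above background on any array. The summed neutrophil signal was 16.04 to 16.62 in WT and 17.37 to 18.05 in KO on the log2 scale. It came mostly from Ltf (means 16.27 in WT and 17.58 in KO), so the sum says little about the other neutrophil markers.

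Some markers of other cells of the gland were also called, where 7.53% of all genes were called higher and 8.96% lower. Of 10 luminal epithelial markers 3 were called higher, Cdh1 (0.88), Krt18 (0.67) and Epcam (0.52), and 8 had a higher KO mean. Elf5 and Lalba had lower KO means (-0.35 and -0.45), Wap and Csn2 gave 0.07 and 0.01, and none of them passed. Scaling to the 75th percentile called 2 higher and 1 lower. The summed log2 luminal signal was 19.68 to 19.76 in WT and 19.78 to 19.85 in KO, mostly from the milk protein genes Wap and Csn2 (WT means 18.39 and 17.76). Of 7 basal markers 1 was called, Krt17, lower at -1.22, with sums of 16.07 to 16.63 in WT and 15.95 to 16.55 in KO. Of 6 fibroblast markers 1 was called higher, Dcn (0.50), and all 6 were higher at an unadjusted p under 0.05, with sums of 17.02 to 17.32 in WT and 17.40 to 17.92 in KO. Of 7 adipocyte markers 2 were called higher, Cfd (0.68) and Plin1 (0.71), with sums of 18.11 to 18.61 in WT and 18.61 to 19.10 in KO. Of 3 red blood cell markers 1 was called higher, Hba-a1 (1.16), with sums of 15.22 to 16.60 in WT and 16.56 to 17.57 in KO. Apart from Cdh1, which was called in all 16 alternatives, each of these calls was lost without WT 2, KO 1 or KO 3. The replicate block ended those of Epcam (adjusted p = 0.0598) and Hba-a1 (0.0553). The methods' t-test ended all but those of Cdh1 and Dcn, with adjusted p from 0.0527 for Cfd to 0.101 for Hba-a1. Scaling to the 75th percentile left 0 fibroblast, 0 red blood cell and 1 adipocyte call, and no filter left 0 basal and 0 red blood cell calls.

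Of 5 T cell markers, Cd3e and Cd4 were called lower, at -0.60 and -0.43. Both calls were lost by the methods' t-test (adjusted p = 0.0660 and 0.0532) and without WT 2, WT 3, WT 4, KO 1, KO 2 or KO 3, and Cd4 lost its call with the replicate block (0.0596) and with normexp (-0.14, 0.178). Of 5 macrophage markers 0 were called by limma (0 at an unadjusted p under 0.05) or by the methods' t-test, at a summed signal of 13.73 to 16.22 in WT and 14.75 to 16.87 in KO. Cd79b was called higher among 5 B cell markers (1.05) and Tnnt3 lower among 3 skeletal muscle markers tested (-1.28). The replicate block ended both calls (adjusted p = 0.0744 and 0.0536), as did the methods' t-test (0.0886 and 0.0830). Leaving out WT 2, WT 4, KO 1, KO 2 or KO 4 also ended both. Of 5 endothelial markers 0 were called by limma (1 lower at an unadjusted p under 0.05) or by the methods' t-test. The part of these cell types in the differences of Jun, Junb, Egr1 and Ier3 was not tested.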

How the data were processed

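Groups and replicate numbers came from the sample labels. The authors deposited, per array, Agilent Feature Extraction 10.7 output, whose intensity (processed signal) that software had already background-subtracted, and a table of log2 values that they had quantile-normalized, used here as an alternative only. Each of its columns had a median of 6.32 and correlated at 1.00 with the log2 values of its array as quantile-normalized here. Log2 processed intensities were quantile-normalized between arrays, without control spots and outlier spots (64 to 100 per array), and spots of a probe were averaged. Of 41174 probes, 27479 matched a RefSeq symbol. Probes not well above background throughout either genotype (all 4 arrays) were left out, the brightest probe stood for a gene, and 14137 genes were tested with limma 3.58.1 (R 4.3.3) and Benjamini-Hochberg adjustment. The fits were also run on simulated data with known changes.

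Alternatives were scaling to the 75th percentile, normexp (offset 50), no filter, all 8 arrays above background, the mean of probes, the authors' table, the replicate number as a block, the methods' t-test and leaving out each array. The mean spot signal that normexp was planned on is not in the scanner tables, so the median spot signal was used. With the group means removed, same-numbered WT and KO arrays correlated at 0.165 to 0.304 in each of the 4 pairs and differently numbered ones at -0.323 to 0.340, -0.08 on average, with 4 of those 12 pairs also over 0.1 and WT 1 with KO 3 above every same-numbered pair. The labels do not say what a number shares, and these correlations do not settle whether it pairs the samples. The main fit used no block, and only the replicate block alternative took the numbers as pairs. If the numbers do pair the samples, the main fit leaves that pairing out, and with the block Jun was not called (limma adjusted p = 0.0702).

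The members, gene lists and motifs were chosen with earlier results of these data known. All members are named, with up to 5 genes per list past the threshold and a few others for their role. The 5 genes outside all lists most correlated with the members are also named. A called gene of the lists is not reported here. The precision is limited by 4 arrays per genotype, each from 1 dam.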

Additional observations from a re-analysis of the deposited data

Results flagged for a closer look

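In 5 of the 58 groups of 4 arrays examined, among the members and the genes named from the lists, 1 array stood apart from the other arrays of its genotype by more of the range than Dixon's 95% limit allows (0.829). Chance alone does so in about 1 group in 20.

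Jund read 14.67 in WT 4, with the other WT arrays between 14.09 and 14.18. Socs3 read 13.29 in KO 1, with the other KO arrays between 11.73 and 11.81, all above the WT range. Gadd45b read 10.31 in WT 1 (9.15 to 9.26 in the other WT arrays), Timp1 read 12.17 in WT 1 (12.47 to 12.52) and Hsph1 read 11.64 in KO 3 (10.84 to 10.97).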

How the results depend on the processing

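Every difference kept its sign in the members tested, under every alternative run, but for Ier2, which was -0.0243 without KO 2. Scaling to the 75th percentile, normexp, the filter on all 8 arrays, the mean of probes and the authors' table left the calls of all 9 members as given. With no filter, 1 member was called (Junb), and adjusted p was 0.0577 for Jun, 0.0666 for Egr1 and 0.0553 for Ier3, at unchanged differences of 1.26, 0.96 and 1.79, over 18717 genes tested. The methods' t-test called 0 members (5 at an unadjusted p under 0.05), with adjusted p of 0.0841 for Jun, 0.0555 for Junb (difference 1.53), 0.0921 for Egr1 and 0.0824 for Ier3, and it called 593 of all genes higher and 796 lower in place of 1065 and 1266. The replicate block, pairing same-numbered arrays, ended the call of Jun (1.26, adjusted p = 0.0702) and of no other member.

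Leaving out each array gave 0 to 5 members called higher, 0 lower (at an unadjusted p under 0.05, 1 lower, Fosb, without KO 1), and 266 to 1388 of all genes called higher and 249 to 1682 lower. Without WT 2, WT 3, KO 2 or KO 3, 0 members were called, with 5 to 7 at an unadjusted p under 0.05. The differences ran from 1.06 to 1.51 for Jun, 1.31 to 1.81 for Junb, 0.40 to 0.66 for Jund, 0.33 to 0.61 for Fos, -1.20 to -0.15 for Fosb, 0.68 to 1.27 for Fosl2, 0.67 to 1.10 for Egr1, -0.0243 to 0.21 for Ier2 and 1.42 to 2.25 for Ier3. The share of all genes called ran from 3.64% without KO 3 to 21.7% without WT 1.

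Each genotype lay on 1 slide, the arrays give no reads, and Fosl1 was too dim on most arrays to compare.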
